A study of Homo sapiens with 6 samples.

Results

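The 10 genes described here code for the hepatic machinery that makes glucose and stores or releases it as glycogen. They were chosen by function, with earlier results of these data known: PCK1, PCK2, PC, FBP1 and G6PC1 for the steps of gluconeogenesis, SLC37A4 and SLC2A2 for the transport of glucose 6-phosphate and glucose, GYS2 and PYGL for liver glycogen, and PPARGC1A for their transcriptional coactivator. Each of the 10 was measured by 1 transcript cluster, which is the group of probes that stands for a gene on the array, among 19291 clusters for 18372 genes. None of the 10 was called in leaf-treated cells at an adjusted p under 0.05.

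The cells were HepG2, an established human liver tumour cell line. Leaf-treated cells received 50 µg/ml of a water extract of B. racemosa leaves for 24 h, and untreated cells received no extract. Both were grown in DMEM with foetal bovine serum, penicillin and streptomycin, and each group had 3 Affymetrix Human Gene 1.0 ST arrays. The comparison asks which transcripts differ after a day of the extract, at 1 dose and 1 time in 1 cell line. No time is given for the untreated cells. Whether both groups spent the same time in culture was not tested. The labels call the replicates biological without saying whether they came from separate cultures, so that the p-values reflect no more than the spread between the samples at hand, which may be technical.

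Gluconeogenesis turns lactate, glycerol and amino acids into glucose when none is taken up from food, and the liver is the main organ that exports it. Pyruvate carboxylase and phosphoenolpyruvate carboxykinase open the pathway, fructose 1,6-bisphosphatase passes a later irreversible step, and glucose 6-phosphatase in the endoplasmic reticulum releases free glucose, also from glycogen. Glucagon and fasting raise transcription of several of these genes through cyclic AMP, CREB, FOXO1 and the coactivator PGC-1alpha, and insulin lowers it.

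The windows around the start sites of 3 members are shown because these genes differ in their promoters and in what the arrays gave. G6PC1 is a hormone-controlled gene whose signal stayed at background, PCK2 had the smallest p of the 10 genes, and SLC2A2 had the larger of the 2 negative log2 fold changes. The sequences are from RefSeq on GRCh38.p14, run 5′ to 3′ on the strand of the gene and hold 250 bases before and 50 bases after the start. They lie at chr17:42900549-42900848 (plus strand) for G6PC1, chr14:24094061-24094360 (plus strand) for PCK2 and chr3:171026671-171026970 (minus strand) for SLC2A2. Capitals mark the matches to the motifs named in the next paragraph.
G6PC1: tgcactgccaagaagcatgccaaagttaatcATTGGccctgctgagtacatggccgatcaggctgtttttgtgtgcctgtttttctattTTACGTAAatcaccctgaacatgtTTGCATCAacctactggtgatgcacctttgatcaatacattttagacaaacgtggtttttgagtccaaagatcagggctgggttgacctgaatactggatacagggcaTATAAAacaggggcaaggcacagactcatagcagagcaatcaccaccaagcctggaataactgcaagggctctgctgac
PCK2: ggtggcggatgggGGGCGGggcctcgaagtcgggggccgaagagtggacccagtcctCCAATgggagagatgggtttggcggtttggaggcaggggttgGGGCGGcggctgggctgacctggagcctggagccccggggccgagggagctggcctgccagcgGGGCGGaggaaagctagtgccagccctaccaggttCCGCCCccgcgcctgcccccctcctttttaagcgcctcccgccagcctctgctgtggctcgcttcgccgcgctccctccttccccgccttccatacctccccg
SLC2A2: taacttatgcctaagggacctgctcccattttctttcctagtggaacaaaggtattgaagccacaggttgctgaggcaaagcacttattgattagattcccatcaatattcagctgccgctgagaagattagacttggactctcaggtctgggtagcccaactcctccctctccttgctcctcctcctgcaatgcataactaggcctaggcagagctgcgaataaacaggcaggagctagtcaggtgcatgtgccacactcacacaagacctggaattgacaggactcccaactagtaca

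Both strands were searched for 9 motifs. These were TATAAA, the core of a TATA box, the cyclic AMP response element TGACGTCA and the related palindrome TTACGTAA, to which CREB binds. The FOXO motif was TGTTTAC and the motif of ATF4 with C/EBP TGATGNAA, and that of HNF4 CAAAGTCCA. The remaining ones were the box CCAAT, the Sp1 motif GGGCGG and the E-box CACGTG. The G6PC1 window held TATAAA at -29 from the start site, TTACGTAA at -161, a TGATGNAA match on the other strand at -137 and a CCAAT match on the other strand at -219. Of 35116 windows of the same length, 11.5% held TATAAA, 0.125% TTACGTAA, 3.62% TGATGNAA and 34.6% CCAAT. The PCK2 window had no TATAAA but 4 matches to GGGCGG, which 45% of all windows held, and 1 CCAAT. The SLC2A2 window held none of the 9 motifs, which says only that these letters are not in those 300 bases.

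Base composition separated these promoters as well. PCK2 had 71.7% G and C and 23 CpG dinucleotides, G6PC1 45.7% and 3, and SLC2A2 49% and 2, against medians of 58.7% and 14 over all windows. Of the 10 genes, 8 had a window and PCK1 and GYS2 are named only. FBP1 and PYGL had 1 window each, with 72.7% and 76% G and C, 4 and 3 matches to GGGCGG and no TATAAA. The remaining motif shares were 1.85% for TGACGTCA, 3.42% for TGTTTAC, 0.384% for CAAAGTCCA and 7.26% for CACGTG. Of these only CACGTG was found in a window of the members, at -123 in window 1 of PPARGC1A and not in its window 2. A match describes the letters, not a bound site. Variants of these letters were not searched, so a missing match does not mean that a factor has no site there.

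Values are log2 expression values as deposited. The arrays carry no detection call, so the 378 clusters of olfactory receptor genes stood in for background. Most of them were assumed to be silent in these cells, which was not tested. A cluster was taken as above background on an array where it exceeded the 95th percentile of the olfactory receptor clusters, which was 3.22 to 3.49. PCK2, SLC2A2, PYGL, PPARGC1A and SLC37A4 were above background on all 6 arrays, G6PC1 and GYS2 on none, and PCK1, PC and FBP1 on some. The check of the cell line gave 9 of 9 measured hepatocyte markers above background on every array, among them ALB, AFP and APOB.

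**Figure D1:**
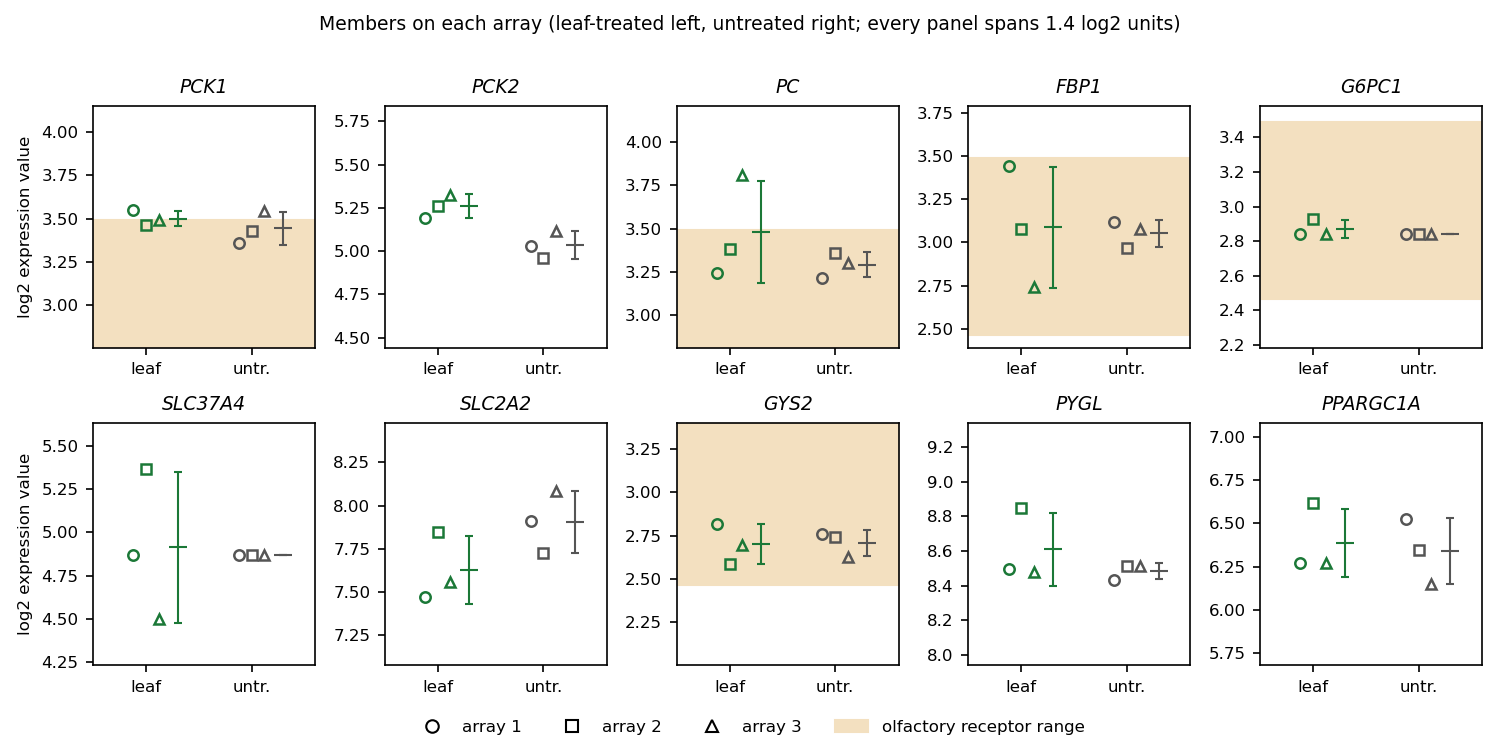
Log2 expression value of each of the 10 genes on each array, with leaf-treated arrays in green on the left and untreated arrays in grey on the right of each panel. Marker shape gives the array number, the bar and whiskers the mean and SD of 3 arrays, and the shaded band the range from the lowest 5th to the highest 95th percentile of olfactory receptor clusters on any array. All G6PC1 and GYS2 values lie inside the band, and PCK2 is the only gene whose 3 leaf-treated values lie above all 3 untreated ones.

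Across the 10 genes, the log2 fold change of leaf-treated over untreated cells ran between -0.28 and 0.23, with a median of 0.04 beside 0.01 over all tested clusters. With dim clusters left out, the median was 0.05 for the 5 members that remained and -0.05 for all 9329 clusters. The sign was positive for 8 genes and negative for 2, where 53.2% of all clusters were positive. For 6 of the 10 (G6PC1, PCK1, FBP1, GYS2, PPARGC1A and SLC37A4) it reversed under at least 1 other processing of the arrays. By limma with Benjamini-Hochberg adjustment over all 19291 clusters, 0 of the 10 had an adjusted p under 0.05, where 0.00518% of all clusters did, and the adjusted p-values were 0.494 to 0.975. At an unadjusted p under 0.05, 1 gene, PCK2, was higher and 0 were lower, where 3.87% of all clusters were higher and 5.90% lower. The series design asks for an unadjusted p under 0.05 together with 1.5 fold or more, and 0 of the 10 genes met both, beside 0.270% higher and 0.570% lower over all clusters. The 3 values of one group lay apart from the 3 of the other, in the higher direction, for 1 gene, and for 0 genes in the lower direction, beside 6.14% and 7.41% of all clusters. After each array was centred on its own median, which shifts every value by the same amount within an array, 326 clusters were higher and 1866 lower at an unadjusted p under 0.05, where the deposited values gave 746 and 1139. These counts also moved with single arrays. They were 1598 higher and 2264 lower without leaf-treated array 2, and 393 higher and 561 lower without untreated array 1. Without each of the other 4 arrays they were 470 to 696 higher and 707 to 913 lower.

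**Figure D2:**
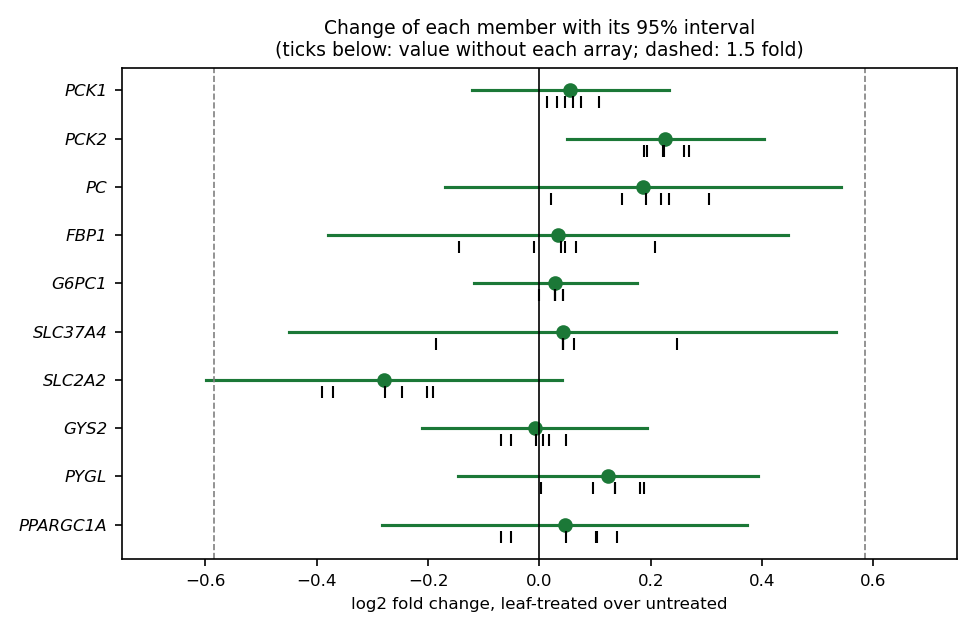
Log2 fold change of leaf-treated over untreated cells for each gene (points) with its 95% interval from limma (lines). The ticks under each line are the values with 1 array left out at a time, and the dashed lines stand at a change of 1.5 fold in either direction. The intervals of 9 genes lie inside the dashed lines, and that of SLC2A2 reaches past the lower one. The values of G6PC1 and GYS2 are differences between signals at background.

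The intervals describe the values on these arrays and do not by themselves exclude a change of a transcript. For 9 of the 10 genes the 95% interval lay within a change of 1.5 fold in both directions, and for SLC2A2 it reached past 1.5 fold lower. Such an interval covers the spread between arrays, and for G6PC1 and GYS2, which were above background on no array, it describes only the spread of a signal at background. FBP1 was above background on 1 array, PC on 4 and PCK1 on 5, and RMA compresses changes of such dim clusters. SLC37A4 held the same number on all untreated arrays (SD 0), so its interval rests on few distinct values.

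PCK2, the mitochondrial phosphoenolpyruvate carboxykinase (cluster 7973530), had values of 5.19, 5.26 and 5.33 on leaf-treated arrays, against 5.03, 4.96 and 5.12 on untreated arrays. Every leaf-treated value lay above every untreated value. The means were 5.26 ± 0.07 in leaf-treated and 5.03 ± 0.08 in untreated cells (SD, n = 3 each), a log2 fold change of 0.23 with a standard error of 0.07 and a 95% interval of 0.05 to 0.40, or 1.17 fold. Its p was 0.02 from limma before adjustment and 0.494 after it. With 1 array left out at a time the log2 fold change stayed between 0.19 and 0.27, and the unadjusted p was 0.0525 without untreated array 1 and 0.0592 without untreated array 2.

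PCK1, the cytosolic phosphoenolpyruvate carboxykinase (cluster 8063590), is the isoform that fasting hormones control in liver. It had 3.55, 3.46 and 3.49 on leaf-treated arrays, against 3.36, 3.43 and 3.55 on untreated arrays. The groups overlapped, and the values lay at the upper edge of background, above it on 2 leaf-treated and 3 untreated arrays. Its log2 fold change was 0.06 (95% interval -0.12 to 0.23), with an adjusted p of 0.778 from limma.

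PC, pyruvate carboxylase (cluster 7949719), makes oxaloacetate from pyruvate in mitochondria and feeds both gluconeogenesis and the citric acid cycle. Leaf-treated arrays gave 3.24, 3.38 and 3.81, against 3.21, 3.36 and 3.30 on untreated arrays. Leaf-treated array 3 was the only one of the 6 clear of the others. The log2 fold change of 0.19 (95% interval -0.17 to 0.54, adjusted p = 0.643 from limma) was 0.02 without that array. PC was above background on 2 arrays of each group.

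FBP1, the liver fructose 1,6-bisphosphatase (cluster 8162502), had 3.44, 3.08 and 2.74 on leaf-treated arrays, against 3.12, 2.97 and 3.08 on untreated arrays. The untreated values lay inside the range of the leaf-treated ones, and the signal was above background only on leaf-treated array 1. Between the groups the log2 fold change was 0.03 (95% interval -0.38 to 0.45, adjusted p = 0.947 from limma), and without that array -0.14. Its muscle paralogue FBP2 was above background on no array, with 2.73, 2.73 and 2.67 on leaf-treated and 2.63, 2.63 and 2.61 on untreated arrays.

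G6PC1, the catalytic subunit of hepatic glucose 6-phosphatase (cluster 8007429), carries out the last step of both glucose production and glycogen breakdown. It had 2.84, 2.93 and 2.84 on leaf-treated arrays and 2.84 on each of the untreated arrays. The same number, to the last digit deposited, stood on 5 of the 6 arrays, and only leaf-treated array 2 differed. All 6 values were within background, so the difference between the groups describes no level of this transcript. The adjusted p was 0.861 from limma.

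Repeated numbers of this kind were common in the deposited table. At least 1 value stood on more than 1 array for 4 of the 10 genes and for 41.1% of all tested clusters. SLC37A4 had 1 number on 4 arrays, PYGL 1 number on untreated arrays 2 and 3, and FBP1 1 number on leaf-treated array 2 and untreated array 3. Where a number repeats, the spread rests on fewer distinct values, and how the repeats arose was not tested.

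The other 2 catalytic subunits gave no call. G6PC2, known from pancreatic islets, was above background on no array. G6PC3, which is expressed in many tissues, had 6.31, 6.54 and 5.75 on leaf-treated arrays, against 6.18, 6.21 and 6.31 on untreated arrays. The leaf-treated values of G6PC3 enclosed the untreated ones, and the log2 fold change was -0.03 (adjusted p = 0.955 from limma), with a positive sign after quantile normalization.

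SLC37A4, the transporter that brings glucose 6-phosphate into the endoplasmic reticulum (cluster 7952132), had 4.87, 5.37 and 4.50 on leaf-treated arrays and 4.87 on each of the untreated arrays. Leaf-treated array 2 was the highest and leaf-treated array 3 the lowest of the 6. Its log2 fold change was 0.04 with the widest interval of the 10 genes, -0.45 to 0.53 (adjusted p = 0.945 from limma). It was -0.19 without leaf-treated array 2 and 0.25 without leaf-treated array 3.

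SLC2A2 codes for GLUT2, the low-affinity glucose transporter of hepatocytes and beta cells (cluster 8092083). It had 7.47, 7.85 and 7.56 on leaf-treated arrays, against 7.91, 7.73 and 8.09 on untreated arrays. Leaf-treated arrays 1 and 3 lay below every untreated array, and leaf-treated array 2 lay above untreated array 2. The means were 7.63 ± 0.20 in leaf-treated and 7.91 ± 0.18 in untreated cells (SD, n = 3 each), which is 0.824 fold. The log2 fold change of -0.28 (SE 0.13, 95% interval -0.60 to 0.04) had a p of 0.0772 from limma before and 0.518 after adjustment. It was -0.17 after quantile normalization, and with 1 array left out it ran between -0.39, without leaf-treated array 2, and -0.19, without untreated array 3. Over all alternatives the adjusted p was 0.171 to 0.824.

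GYS2, the liver glycogen synthase (cluster 7961673), was within background on all 6 arrays. Leaf-treated arrays gave 2.82, 2.59 and 2.69, against 2.76, 2.74 and 2.62 on untreated arrays, with full overlap and an adjusted p of 0.975 from limma. GYS1, the synthase known from muscle and most other tissues, was above background on every array. It had 4.66, 4.92 and 4.61 on leaf-treated arrays, against 4.67, 4.70 and 4.71 on untreated arrays. Its log2 fold change was 0.04 (adjusted p = 0.885 from limma) and -0.06 without leaf-treated array 2, the highest of the 6, and it was also negative after median centring.

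PYGL, the liver glycogen phosphorylase (cluster 7979085), removes glucose units from the ends of glycogen chains. It had 8.50, 8.85 and 8.48 on leaf-treated arrays, against 8.43, 8.51 and 8.51 on untreated arrays. Only leaf-treated array 2 stood clear of the other 5 arrays. The means were 8.61 ± 0.21 in leaf-treated and 8.49 ± 0.05 in untreated cells (SD, n = 3 each). The log2 fold change of 0.12 (95% interval -0.15 to 0.39, adjusted p = 0.681 from limma) was 0.0025 without leaf-treated array 2.

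The other phosphorylases gave no call either. PYGB, the brain form, had 5.45, 5.97 and 5.09 on leaf-treated arrays, against 5.42, 5.50 and 5.20 on untreated arrays, a log2 fold change of 0.13 (adjusted p = 0.828 from limma) that was -0.11 without leaf-treated array 2. PYGM, the muscle form, was above background on no array.

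PPARGC1A codes for PGC-1alpha, a coactivator of mitochondrial and gluconeogenic genes (cluster 8099633). Leaf-treated arrays gave 6.27, 6.62 and 6.27, against 6.53, 6.35 and 6.15 on untreated arrays. The lowest of the 6 was untreated array 3 and the highest leaf-treated array 2, and the groups overlapped. The log2 fold change was 0.05 (95% interval -0.28 to 0.37, adjusted p = 0.907 from limma), and -0.07 without leaf-treated array 2.

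Leaf-treated array 2 recurred in these values. It was the highest of the 3 leaf-treated arrays for 4 of the 5 genes above background on every array and the highest of all 6 for 3 of them, where the shares over all clusters above background on every array were 51.3% and 24.1%. Over all tested clusters this array correlated with the untreated arrays at r of 0.992 to 0.993 and with the other leaf-treated arrays at 0.986 to 0.988. Leaf-treated arrays 1 and 3 correlated with the untreated arrays at 0.984 to 0.988, and the untreated arrays among themselves at 0.993 to 0.995. The part of this array in the results was not tested beyond the values without it.

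The other genes of the pathway were taken from 5 lists with 100 measured genes, for each of which the brightest cluster was used. These lists were chosen with earlier results of these data known, so their counts are a description and no independent evidence. None of the 100 had an adjusted p under 0.05 from limma. These lists, like the 10 genes, are described by counts at an unadjusted p under 0.05 beside the shares of 3.87% higher and 5.90% lower over all clusters. For a gene named for its small p, a gap between the groups rests on the same 6 values and is no separate support. Over all clusters, 6.14% had such a gap in the higher and 7.41% in the lower direction.

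**Figure D3:**
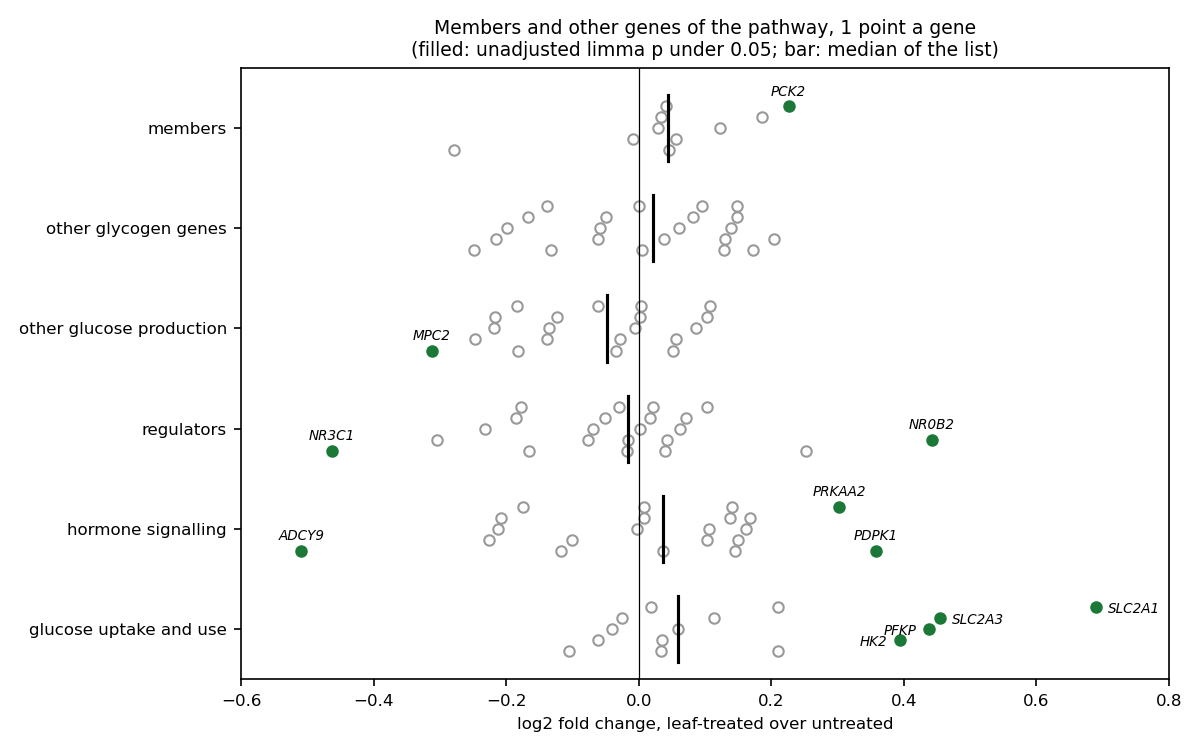
Log2 fold change of leaf-treated over untreated cells for the 10 members and for each measured gene of the 5 other lists, 1 point a gene. Filled points have an unadjusted limma p under 0.05 and are named, and the vertical bars are the list medians, which lie between -0.05 and 0.06. Glucose uptake and use is the list with 4 filled points, all on the higher side. All lists were chosen with earlier results of these data known.

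Of 22 measured genes for glycogen synthesis, breakdown and their control, 0 were higher and 0 lower, and the median log2 fold change was 0.02. The smallest p-values belonged to GSK3A, a kinase that inhibits glycogen synthase (log2 fold change -0.17), PYGM and GBE1, the branching enzyme (log2 fold change 0.13), with adjusted p-values of 0.513 to 0.574 from limma. PYGM was above background on no array, and nothing is read from its difference. Of 20 measured genes for other steps of glucose production, 1 was lower and 0 higher, with a median of -0.05. The lower one was MPC2, a subunit of the mitochondrial pyruvate carrier, which had 7.18, 7.05 and 6.97 on leaf-treated arrays, against 7.50, 7.30 and 7.34 on untreated arrays. The groups did not overlap for MPC2, and its log2 fold change was -0.31 (adjusted p = 0.45 from limma). MDH1, the cytosolic malate dehydrogenase, and PDK2, a kinase that inhibits pyruvate dehydrogenase, came next in that list, at -0.25 and -0.22.

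Of 22 measured transcriptional regulators, 1 was higher and 1 lower, with a median of -0.02. NR0B2, the nuclear receptor SHP that represses bile acid synthesis and gluconeogenic genes, had 6.19, 6.69 and 6.26 on leaf-treated arrays, against 6.06, 5.78 and 5.98 on untreated arrays. Its groups did not overlap (log2 fold change 0.44, adjusted p = 0.5 from limma). NR3C1, the glucocorticoid receptor, had 4.72, 5.35 and 4.94 on leaf-treated arrays, against 5.44, 5.34 and 5.61 on untreated arrays. Leaf-treated array 2 overlapped with untreated array 2 for NR3C1, and the log2 fold change was -0.46 (adjusted p = 0.506 from limma). CREB1, the factor that binds cyclic AMP response elements, stood at -0.31 with an adjusted p of 0.513.

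Of 21 measured genes of insulin, glucagon and energy signalling, 2 were higher and 1 lower, with a median of 0.04. PRKAA2, a catalytic subunit of AMP-activated kinase, and PDPK1, the kinase that activates AKT, were at log2 fold changes of 0.30 and 0.36. ADCY9, an adenylate cyclase, was at -0.51. The adjusted p-values of these 3 genes were 0.5 to 0.506 from limma, and their groups did not overlap. In the whole list the groups lay apart for 4 genes in the higher and 3 in the lower direction, beside 6.14% and 7.41% of all clusters.

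Of 15 measured genes for glucose uptake and glycolytic use, 4 were higher and 0 lower, with a median of 0.06. Because the list was chosen with earlier results of these data known, this count is no independent evidence about such genes. SLC2A1, which codes for the widespread transporter GLUT1, had 10.28, 10.59 and 10.07 on leaf-treated arrays, against 9.67, 9.62 and 9.58 on untreated arrays. Its log2 fold change was 0.69, with an adjusted p of 0.351 from limma. It was the only 1 of the 100 genes past the thresholds of the series design, beside 0.270% higher and 0.570% lower over all clusters. A count of 1 in 100 is near those shares. SLC2A3, which codes for GLUT3, HK2, a hexokinase that phosphorylates glucose, and PFKP, the platelet phosphofructokinase, were at 0.45, 0.39 and 0.44, with adjusted p-values of 0.399 to 0.507. The groups did not overlap for any of the 4, beside 6.14% of all clusters with such a gap in the higher direction. These 4 were named for a small p in the same values, so the gap is no separate support.

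**Figure D4:**
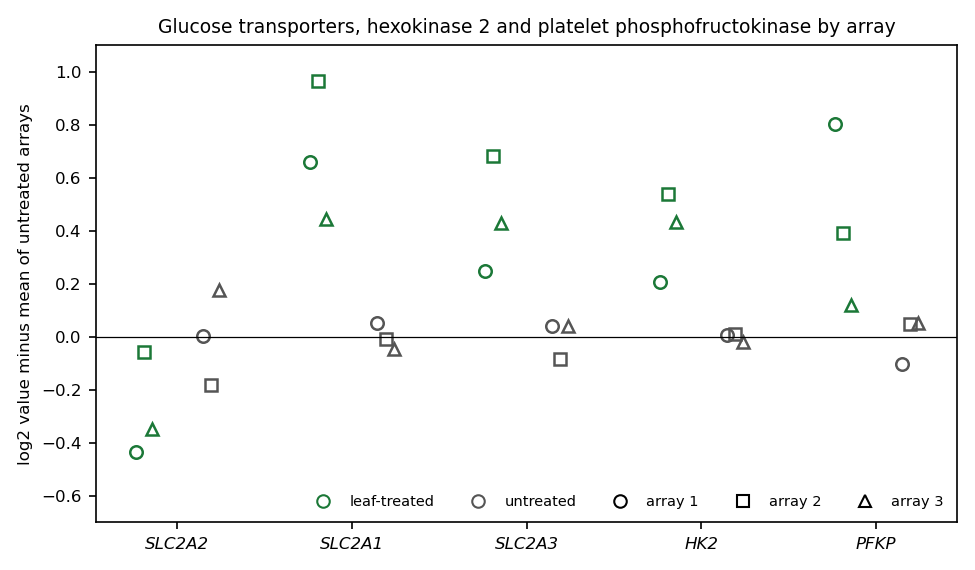
Log2 value of each array minus the mean of the 3 untreated arrays, for SLC2A2 and for the 4 genes of glucose uptake and use with an unadjusted limma p under 0.05. Leaf-treated arrays are in green on the left and untreated arrays in grey on the right of each gene, and marker shape gives the array number. For SLC2A1, SLC2A3, HK2 and PFKP every leaf-treated array lies above every untreated one, and for SLC2A2 leaf-treated arrays 1 and 3 lie below.

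The transporters SLC2A2 and SLC2A1 thus had changes of opposite sign, and neither passed the adjustment. The log2 ratio of SLC2A2 to SLC2A1 within an array was -2.81, -2.74 and -2.51 on leaf-treated arrays, against -1.76, -1.89 and -1.49 on untreated arrays. The difference in this ratio was -0.97, and the larger part of it came from SLC2A1. The groups did not overlap. SLC2A1 alone already had such a gap and was named for a small p, so the gap in the ratio is no separate support. This ratio was chosen after the values had been seen, and no test was made of it. Because 2 probe sets are involved, only the shift between groups can be read and not the size of the ratio.

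Markers of other cell types were measured as well. Of 7 fibroblast markers 1 was above background on every array, and of 5 measured blood markers 1, LYZ. Of 7 squamous epithelial markers 5 were measured and 3 (KRT14, KRT16 and SFN) were above background on every array. All 5 had a positive sign, with a median log2 fold change of 0.20 and 0 at an unadjusted p under 0.05. KRT5 was above background on 2 leaf-treated arrays and 1 untreated array and DSG3 on none, and nothing is read from the sign of DSG3. Of the 9 measured hepatocyte markers 7 were negative and 2 positive, with a median of -0.07. Over all tested clusters 53.2% were positive. The median level of the 5 squamous markers was 3.69 to 4.16 on leaf-treated arrays and 3.64 to 3.72 on untreated arrays. The part of these marker genes in the results was not tested.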

How the data were processed

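RNA of 3 leaf-treated and 3 untreated HepG2 samples was measured on Affymetrix Human Gene 1.0 ST arrays. Log2 expression values per transcript cluster were used as the authors deposited them. Per the submitters' processing notes, GCOS, Partek and RMA were used, with versions, options and genome build not given in the sources used here. RMA subtracts background, normalizes arrays and summarises probes, and it compresses changes of dim clusters. Of 33297 rows, 4468 were 0 on all arrays and were left out, as were 7803 without a symbol and 1735 with several. Symbols came from the platform annotation and were replaced by the RefSeq symbol where the gene identifier matched.

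Groups were tested with limma 3.58.1, run in R 4.3.3 (lmFit and eBayes, no covariate, Benjamini-Hochberg over 19291 clusters, intervals at 95%). With 3 arrays a group, their number limits precision. As alternatives, arrays were quantile normalized or median centred, dim clusters were left out, eBayes was run with a trend and robustly, arrays were weighted, analysis of variance was used, all rows were tested, clusters of a gene were averaged, the replicate number was added as a covariate and single arrays were left out.

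The members and the gene lists were chosen with earlier results of these data known. Named were all 10 members, their closest paralogues (GYS1, PYGB, PYGM, FBP2, G6PC2 and G6PC3) and, of each other list, called genes, genes past the thresholds of the series design, or otherwise up to 3 genes with the smallest p. SLC2A3, HK2 and PFKP fall outside this rule and were chosen after their values were seen, as were the markers named.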

Additional observations from a re-analysis of the deposited data

How the results depend on the processing

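No member and none of the 21 other named genes was called at an adjusted p under 0.05 in any of the 15 alternatives. Of 457 log2 fold changes, 432 kept their sign, 24 reversed and 1 was exactly 0 (G6PC1 without leaf-treated array 2). Those of G6PC1 and GYS2 are differences between signals at background, and nothing is read from their sign. PCK2, PC, PYGL and SLC2A2 kept theirs throughout. For PCK2, the value was 0.15 after centring on the array median (limma adjusted p = 0.542), 0.28 after quantile normalization (limma adjusted p = 0.389) and 0.23 with a replicate block (limma adjusted p = 0.573). Over its alternatives the adjusted p was 0.222 to 0.824.

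Quantile normalization gave reversed values of -0.00092 for G6PC1, -0.0187 for PCK1, -0.0105 for FBP1 and 0.0633 for G6PC3, and 2 members (PCK2 and PYGL) higher at an unadjusted p under 0.05. Median centring gave -0.0483 for G6PC1, -0.0215 for PCK1, -0.0432 for FBP1, -0.0319 for PPARGC1A, -0.0353 for SLC37A4 and -0.0397 for GYS1, with 0 members higher and 1 (SLC2A2) lower. It moved the median of all clusters to -0.07. Array weights gave 0.0297 for GYS2 and -0.0046 for SLC37A4, with 1 member (SLC2A2) lower. With 1 array left out, the range was -0.14 to 0.21 for FBP1, -0.0682 to 0.0477 for GYS2, -0.0695 to 0.139 for PPARGC1A, -0.19 to 0.25 for SLC37A4, -0.0566 to 0.0958 for GYS1, -0.11 to 0.33 for PYGB and -0.21 to 0.19 for G6PC3. The number of members at an unadjusted p under 0.05 was then 0 to 1 higher (0 without untreated array 1 or 2) and 0 to 1 lower (SLC2A2, without leaf-treated array 2 or untreated array 2). The causes were not tested.

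Replicate numbers are shared between the groups. Deviations from the group mean correlated at r of -0.11, -0.18 and 0.12 for same-numbered arrays, and at -0.19 to 0.27 for differently numbered ones. Deviations from a mean of 3 arrays depend on each other, so these values cannot decide whether same-numbered arrays belong together. That was not tested. The replicate block left 0 clusters called in the whole table, where 1 was called without it, and other settings gave 0 to 8. The filter on dim clusters kept 9329 clusters and 5 members, and has no value for the other 5. Levels near background, repeated numbers and 3 arrays a group limit what could be seen.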
